A study of Drosophila melanogaster with 12 samples.

Results

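The genes described here encode protein subunits of the mitochondrial ribosome in Drosophila melanogaster, the genes whose symbols begin with mRpL (large subunit) or mRpS (small subunit). They were taken from chromosome arms 2L, 3R and the part of 3L that has the same coordinates in both builds used, where gene annotation could be placed on the deposited coordinates, and a member needed at least 50 pooled reads on its own strand. Of 38 such genes 37 qualified, 22 of the large and 15 of the small subunit, with 11 on 2L, 5 on 3L and 21 on 3R. The same regions held 8377 named genes, of which 5810 had at least 50 pooled reads. Pooled reads per member ran from 348 to 15837. The gene left out, mRpL13, ends where CG10602 overlaps it on the same strand. The 333 reads within 24 nt of its annotated end, at 2L:18858022, were assigned to CG10602, so its level was not analysed here.

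The data are 3' end reads from adult flies, made with 3'READS or 3'READS+, protocols that sequence fragments carrying the poly(A) tail so that 1 read marks 1 transcript end. Levels of different genes can therefore be compared without scaling for length. Heads and bodies had been dissected from 2 strains, w1118, used as wild type, and a strain carrying the C4 allele of RpII215, the gene for the largest subunit of RNA polymerase II, which is called the mutant below. There were 4 libraries each of wild-type heads and wild-type bodies, and 2 libraries each of mutant heads and mutant bodies. Neither sex, age nor the number of flies per library was given. Nothing in the labels says that replicates came from separate flies, so every p-value sets a difference against the spread of these libraries, and that spread may be technical. RpII215 lies on the X chromosome, outside the named regions, and was not analysed here. In RNA from whole heads or bodies, fewer cells of a type and less RNA per cell cannot be told apart.

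Mitochondria hold their own ribosomes, descended from those of bacteria, which translate the few membrane subunits of the respiratory chain that mitochondrial DNA encodes. All mitoribosomal proteins are encoded in the nucleus, made in the cytosol and imported. Some are counterparts of bacterial ribosomal proteins, and others are found only in mitochondrial ribosomes. Where a gene's transcript ends sets which 3' untranslated region (3'UTR) it carries, and an end before the stop codon leaves out part of the coding sequence.

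The libraries differed in ways that the groups do not explain. They fall in an early and a later range of sample numbers, the early range with wild-type replicates 1 and 2 and the later range with wild-type replicates 3 and 4 and all mutants. Total reads per library were 2219693 to 9062730, reads in named genes 771077 to 3047320 and reads in members 1974 to 9511. In 20 of 37 members the 4 early and the 4 later wild-type libraries did not overlap, against 27.9% of all genes tested, with 7 higher and 13 lower in the early range. The median absolute log2 difference between the ranges was 1.497 over the members, as a ratio of mean CPM. Between tissues it was 0.50, as a fitted value with a term for the range, which is an unlike measure. Neither was worked out over all genes. For mRpS35, of the small subunit, early libraries held 6.86 to 18.3 CPM (reads scaled to a common library size) and later ones 184.6 to 314.1. For mRpS6, also of the small subunit, the order was the opposite, with 125.5 to 407.6 against 9.32 to 15.2. The tissue comparison therefore carried a term for the range, and mutants were compared only with later wild-type libraries.

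Mutant body replicate 1 also stood apart. For 12 of 37 members its level lay over 2-fold outside the other 3 later body libraries, against 23.9% of all genes tested, 4 above and 8 below them. Its share of reads on the mitochondrial chromosome was 4.50%, against 22.0% in mutant body replicate 2 and 18.3% and 24.2% in the later wild-type bodies. In the early range, wild-type body replicate 1 and head replicate 1 were low as well, at 5.31% and 8.33%. Members called in mutant bodies are given with and without it.

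Together the members made up 0.334% to 0.429% of named-gene reads in wild-type heads and 0.234% to 0.277% in wild-type bodies. Their summed level was 3857 ± 525 CPM in wild-type heads (mean ± SD, n = 4) and 2606 ± 241 in wild-type bodies (n = 4). The lowest head library, at 3411 CPM, lay above the highest body library, at 2801. Mutant heads held 3369 and 3237 CPM and mutant bodies 3984 and 2518. mRpL28, a large subunit protein with a bacterial counterpart, carried 34.7% of the sum in mutant body replicate 1 and 18.3% in replicate 2. Without it the sums were 2603 and 2057 CPM in mutant bodies and 2087 ± 63.1 in wild-type bodies (n = 4).

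Levels spanned a wide range although the proteins belong to 1 complex. Averaged over the 12 libraries, mRpL28 was highest at 588.5 CPM, followed by mRpL23 at 194 and mRpS7 at 192, both counterparts of bacterial proteins, then by mRpS35 at 168 and mRpL44 at 168. mRpL44 is a mitochondrial subunit related to RNase III. The lowest were mRpL19 at 11.8 CPM, mRpL47 at 18.7, mRpL11 at 20.3, mRpL48 at 21.4 and mRpS23 at 22.4. mRpL28 had 697, 410, 544 and 540.5 CPM in wild-type heads, and mRpL23 had 246, 241, 258 and 255.5, closer together than the values of the other 4 of the highest members. The libraries did not keep this order. In wild-type head replicate 2, mRpL32 at 607.2 CPM and mRpS22 at 460.9 lay above mRpL28, and in later wild-type heads mRpS35 and mRpS9 lay above mRpL23. mRpS35 and mRpL44 stood high in the later range only. In wild-type heads mRpL44 had 37.5 and 49.2 CPM in the early range and 224 and 231.5 in the later one.

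**Figure D1:**
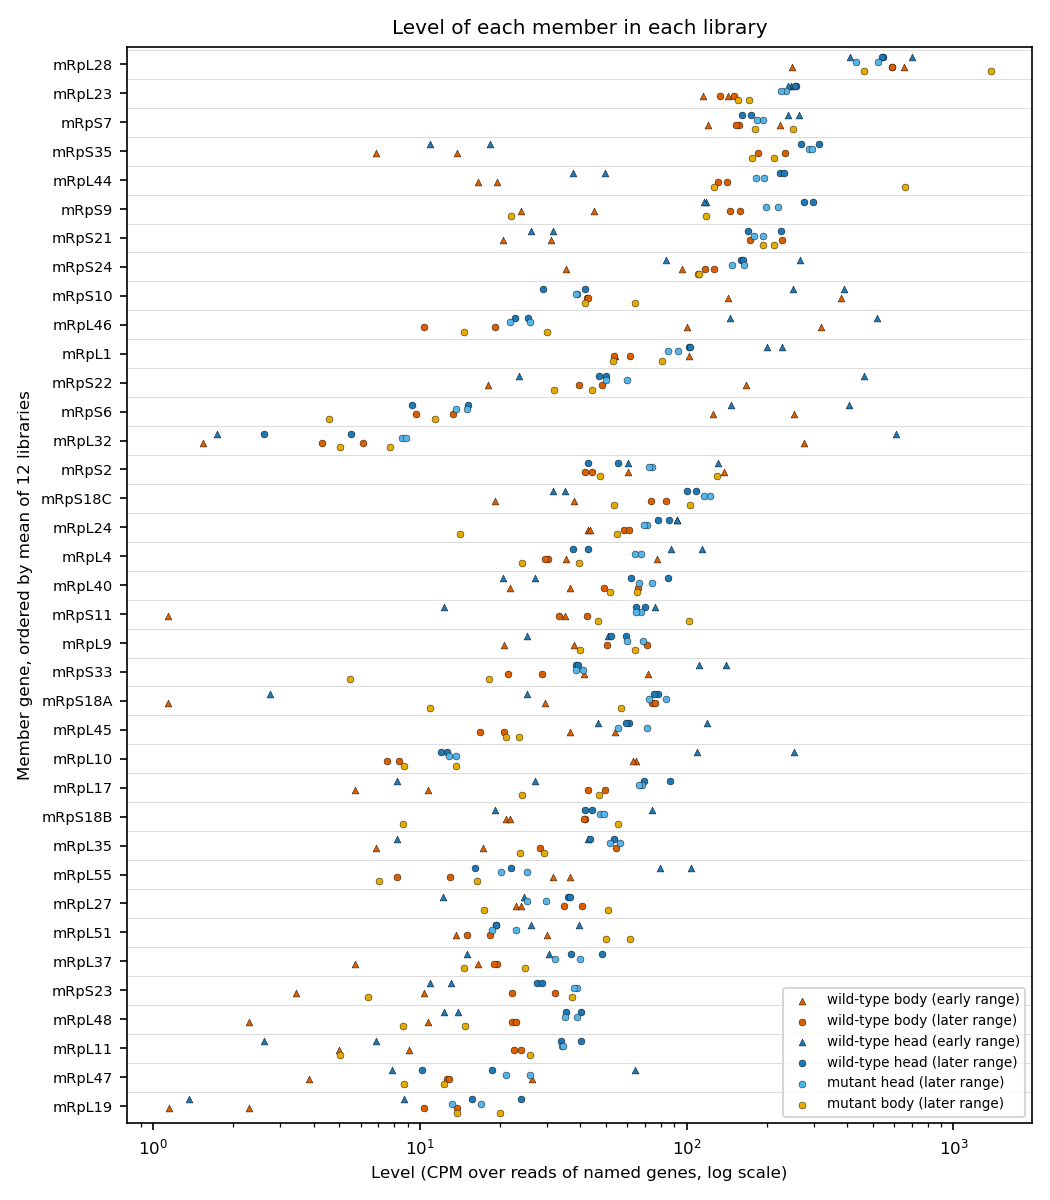
Level of each of the 37 members in the 12 libraries, in CPM on a log axis. Triangles are libraries of the early range of sample numbers and circles those of the later range; for mRpS35 the early wild-type libraries lie at 6.86 to 18.3 CPM and the later ones at 184.6 to 314.1.

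Most members ended at a single place close behind the stop codon. Positions within 24 nt of each other were joined into sites, which gave 66 sites over the 37 members. The main 3'UTR site lay a median of 60 nt past the last coding base (range 27 to 161), against 173 nt over all coding genes, and in 33 of 37 members, or 89.2%, it lay within 100 nt. That share was 28.5% over all coding genes, 60.5% over cytosolic ribosomal protein genes and 53.9% over nuclear genes of the respiratory chain. In 31 members, or 83.8%, at least 95% of site reads were at 1 site, and in 21 all of them were. The share with 95% at 1 site was 46.3% of 4326 coding genes, 86.8% of cytosolic ribosomal protein genes and 72.5% of respiratory chain genes. Among the 3774 coding genes whose read numbers lay in the members' range it was 45.6%. These are descriptions of gene sets and were given no test.

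The main site lay within 24 nt of an annotated transcript end in 34 of 37 members (91.9%). That share was 79.3% over all coding genes, 89.5% over cytosolic ribosomal protein genes and 97.4% over respiratory chain genes. The members are short genes, with a median longest transcript of 863 nt and 2 exons, against 1796 nt and 4 over all coding genes. Cytosolic ribosomal protein and respiratory chain genes have medians of 828.5 and 774.5 nt, and of 3 exons each. mRpL46, mRpL51 and mRpS22 have a single exon. A second 3'UTR site with at least 5% of reads was found in 4 members (10.8%), which are mRpL45, mRpL4, mRpL17 and mRpS24. It was found in 43.7% of coding genes, 10.5% of cytosolic ribosomal protein genes and 22.5% of respiratory chain genes. Reads before the end of the coding sequence reached 1% in 25.3% of coding genes. They did so in 2.63% of cytosolic ribosomal protein genes and 7.5% of respiratory chain genes. Among members they did so in mRpL51 alone (2.70%). There they made up 29.1% of pooled reads, against 0.843% in mRpS11, 0.538% in mRpS18A and 0.179% in mRpL23, and no reads at such sites in the other 33.

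**Figure D2:**
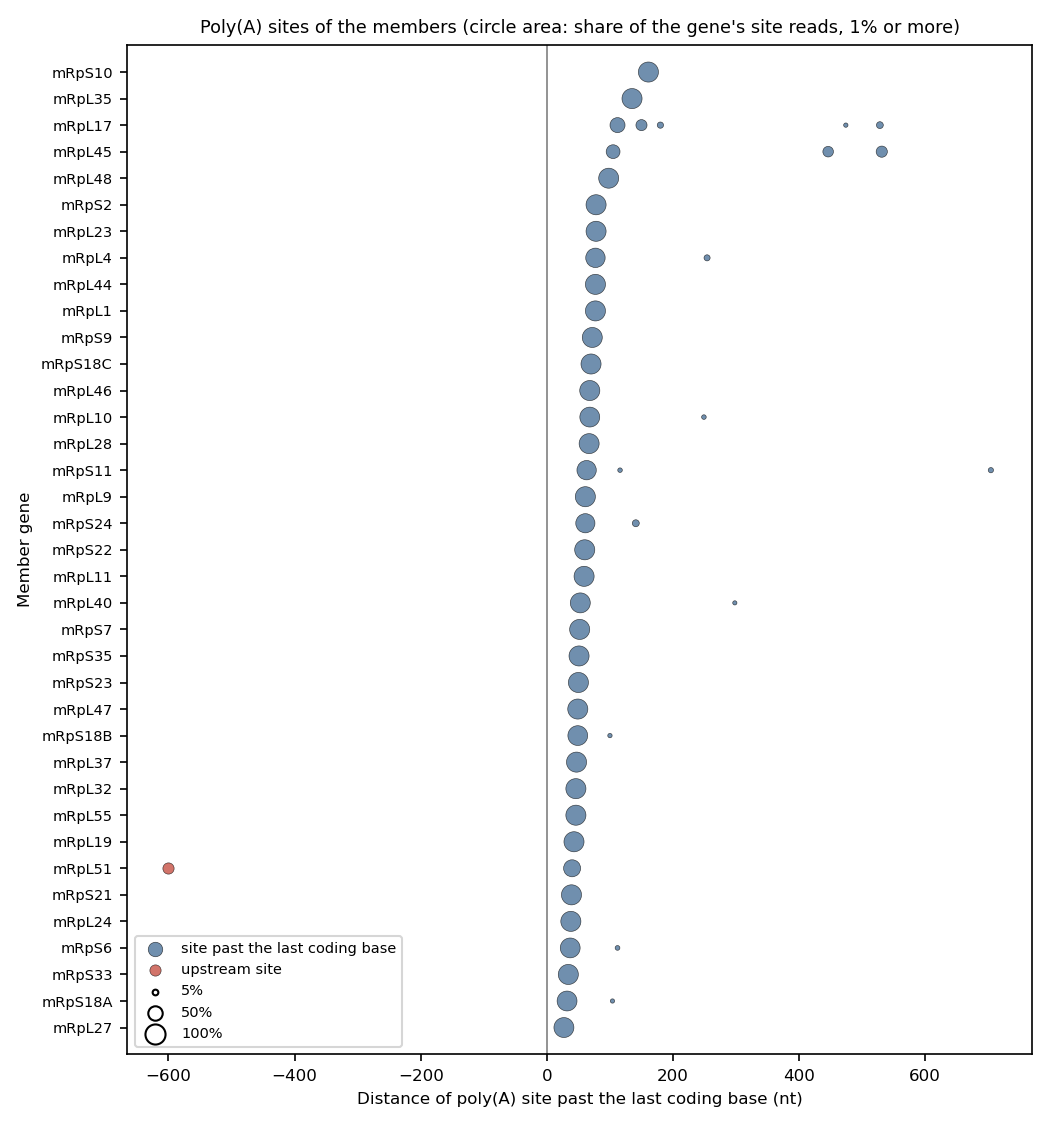
Position of each site of the 37 members as distance in nt past the last coding base, with circle area giving the share of the gene's site reads (sites with at least 1%). Most members have 1 site at 27 to 161 nt; mRpL45 has sites at 105, 446 and 531 nt, and mRpL51 has a site 600 nt before its last coding base.

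Wild-type heads were first compared with wild-type bodies. Of 37 members 7 were called higher in heads at an adjusted p under 0.05 and 0 lower. The test was edgeR's two-sided quasi-likelihood test over 4838 genes with Benjamini-Hochberg adjustment. At an unadjusted p under 0.05 there were 10 members and 2586 of the 4838 genes. Over all genes tested 47.8% were called, 20.3% as higher in heads, so the share of members called higher was close to that background. The fitted log2 difference was above 0 in 29 members and below 0 in 8, with a median of 0.50 over the members and 0.17 over all genes. The median was 0.61 over the large subunit (6 of 22 called) and 0.20 over the small subunit (1 of 15 called). How many of all genes lay above 0 was not counted.

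mRpS9, the counterpart of a bacterial protein in the head of the small subunit, had the highest log2 difference. It measured 118.5, 116, 275.5 and 297.5 CPM in wild-type heads and 44.9, 24.01, 146 and 159 in bodies. Every head library lay above the body library of its number, though the groups overlapped across the early and later ranges. The log2 fold change was 1.19 (SE 0.312, edgeR adjusted p = 0.0124). mRpL1, the counterpart of the bacterial protein of the L1 stalk, had 199.6, 228, 102.1 and 103.3 CPM in heads and 102, 53.7, 61.4 and 53.4 in bodies. Its lowest head value, 102.1, equalled its highest body value to the digits kept, and its log2 fold change was 1.02 (SE 0.307, edgeR adjusted p = 0.0237).

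mRpL23, whose bacterial counterpart lies at the exit of the peptide tunnel, had 246, 241, 258 and 255.5 CPM in heads and 143.5, 115.5, 134 and 151 in bodies. The 2 groups did not overlap (log2 fold change 0.74, SE 0.244, edgeR adjusted p = 0.0340). mRpL45, a large subunit protein that in mammals lies at the tunnel exit and faces the inner membrane, had 119, 46.5, 60.8 and 59.0 CPM in heads and 54.1, 36.6, 20.6 and 16.8 in bodies. Its log2 fold change was 1.11 (SE 0.346, edgeR adjusted p = 0.0271), and the early head value of 46.5 lay below an early body value. With reads counted to 200 nt past the gene end, not 1000, the difference turned to -0.25 (edgeR adjusted p = 0.571), because the 2 distal sites of this gene lie 342 and 427 nt past its annotated end.

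The other members called were mRpL55 (log2 fold change 1.01, edgeR adjusted p = 0.0344), a subunit without a bacterial counterpart, mRpL10 (0.93, edgeR adjusted p = 0.0474) and mRpL44 (0.85, edgeR adjusted p = 0.0405). For mRpL10, the counterpart of a protein at the base of the bacterial stalk, heads had 254, 109, 12.7 and 11.99 CPM and bodies 64.5, 62.9, 8.39 and 7.52. The ranges differed for it more than the tissues did. mRpL37, mRpL19 and mRpS11 had log2 differences of 0.93, 0.90 and 0.87 without passing (edgeR adjusted p = 0.0624, 0.170 and 0.337). The lowest differences belonged to mRpL27 at -0.33, mRpS18A at -0.21, mRpS10 at -0.12, mRpL40 at -0.09 and mRpS2 at -0.07, with edgeR adjusted p from 0.452 to 0.901.

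More members lay above 0 than were called. In 19 members the head library was above the body library in 4 of 4 pairs of the same number, which held for 39.0% of all genes tested, in 10 members in 3, in 7 in 2 and in 1 in 1. Taken within the ranges, 27 members had a higher head mean in both, with a median log2 difference of 0.91 in the early and 0.41 in the later range. Neither that count nor these medians were worked out over all genes. The number of calls rested on single libraries. It was 1 without wild-type head replicate 3, body replicate 3 or body replicate 4. It was 2 without head replicate 4 or body replicate 2 and 4 without body replicate 1. Without the term for the range it was 0, where 31.9% of all genes were called. Leaving out 1 library, 37.1% to 50.3% of all genes were called. With a block for the replicate number 10 members were called, where 56.1% of all genes were. mRpL37, mRpS11 and mRpS33 were added (edgeR adjusted p = 0.0189, 0.0381 and 0.0377). Within the early range libraries of the same number deviated together (r = 0.689), and within the later range hardly at all (r = 0.0537). These added calls thus rest on a pairing that the early libraries show and the later ones do not. The main fit leaves that pairing out.

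**Figure D3:**
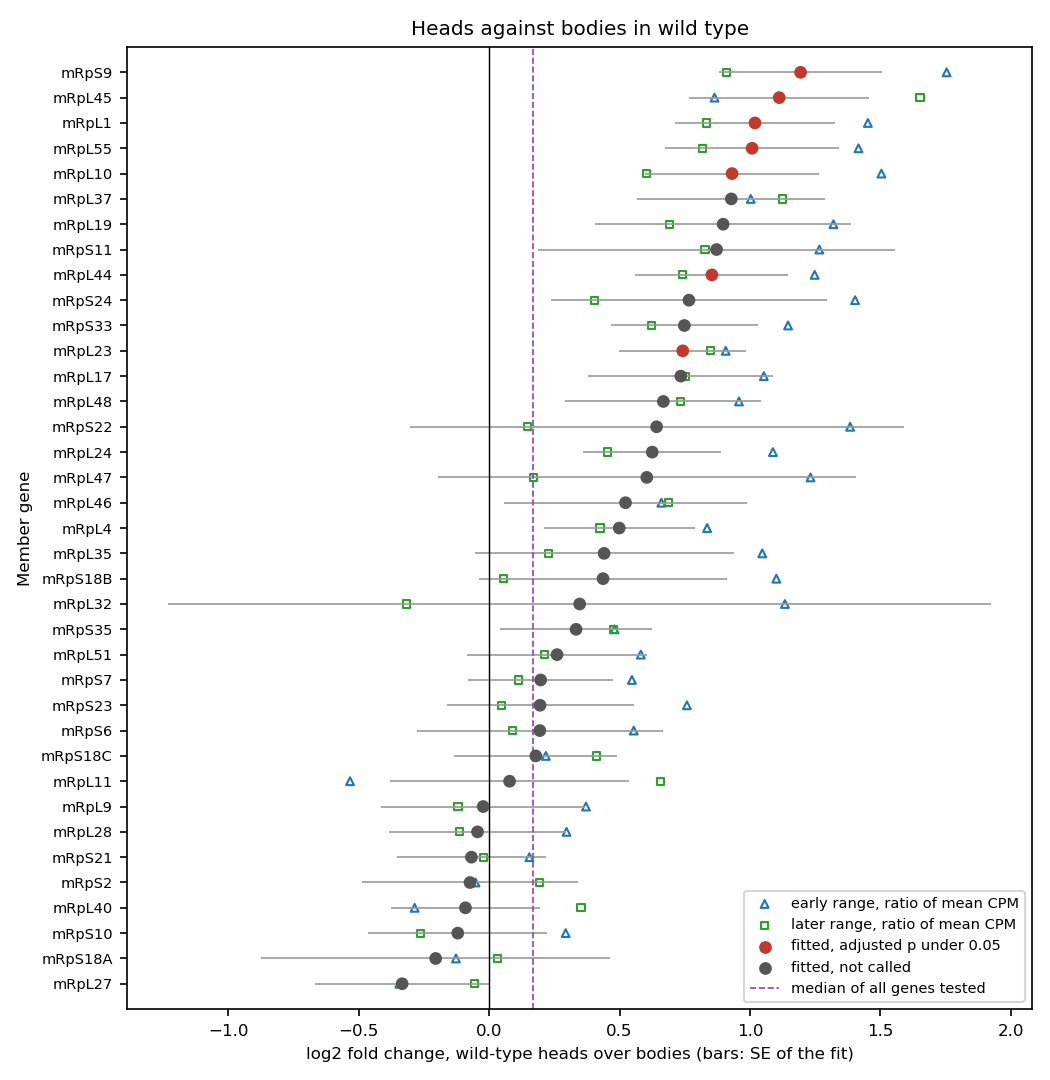
Log2 difference of each member between wild-type heads and bodies. Circles with bars are the fitted value ± SE over 8 libraries, red where the adjusted p is under 0.05 (7 members); triangles and squares are the ratios within the early and the later range, and the dashed line is the median of all genes, 0.17.

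Other mitochondrial genes in the same regions did not share 1 direction. Of 12 tested factors and aminoacyl-tRNA synthetases of mitochondrial translation, 2 passed as higher in heads and 1 as lower, and the median was 0.57. ProRS-m and SerRS-m, which charge mitochondrial tRNAs with proline and serine, rose to log2 differences of 1.28 and 0.97 (edgeR adjusted p = 0.0115 and 0.0189). mEFTs, an elongation factor, was lower in heads at 255.6 against 610.9 CPM (log2 -1.18, edgeR adjusted p = 0.0225). Of 8 tested genes for the upkeep of mitochondrial DNA and RNA, 1 was lower and 0 higher, with a median of 0.23. That gene was PolG1, the mitochondrial DNA polymerase, at a log2 difference of -1.11 (edgeR adjusted p = 0.0134).

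Nuclear respiratory chain genes held 8 lower calls and 0 higher ones among 38 tested, and their median was -0.26. They included ND-B8, a subunit of complex I, at a log2 difference of -5.96 (edgeR adjusted p = 7.2e-05). Of 38 cytosolic ribosomal protein genes, 0 were higher and 2 lower, RpS5b at -3.76 and RpL10Aa at -4.46 (edgeR adjusted p = 4.7e-04 and 0.0128), with a median of 0.24. None of the 3 mitoribosome genes with symbols of another form lies in the named regions.

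Markers of the cell types of the 2 tissues moved in this comparison as well. Photoreceptor and neuron markers were called higher in heads in 6 of 6 tested each. Markers of the male germline and accessory gland were lower in 8 of 8 and of the gut in 5 of 5. Muscle markers were higher in 1 and lower in 4 of 7, and fat body markers lower in 1 of 3. Photoreceptor markers summed to 12980 to 47760 CPM in wild-type heads and 13.7 to 2077 in wild-type bodies, the later ones at 13.7 to 31.9. Male markers summed to 91.3 to 462.9 CPM in wild-type heads and 15860 to 20110 in bodies, and ovary and eggshell markers to no more than 23.5 in any library. The part of cell composition in the members' differences was not tested.

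Of the 4 members with a second 3'UTR site, mRpL45 differed between tissues. Its sites lie at 3R:18445549, 18445890 and 18445975 on the plus strand, 105, 446 and 531 nt past the last coding base, and the first is the annotated end. The share of reads at both distal sites was 42.8%, 43.8%, 83.1% and 76.6% in wild-type heads and 7.19%, 3.13%, 17.0% and 15.6% in wild-type bodies. All head values lay above all body values. The means were 61.6% ± 21.3 (SD, n = 4) and 10.7% ± 6.65 (SD, n = 4). Within the later range they were 79.8% ± 4.64 and 16.3% ± 1.01 (n = 2 each), and within the early range 43.3% ± 0.709 and 5.16% ± 2.88 (n = 2 each).

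The test compared the farthest site with the first, the 2 most used. It gave a log2 ratio of 4.05 between wild-type heads and bodies (SE 0.610, edgeR adjusted p = 0.00238), where 15.6% of 1751 genes tested were called. The level at the first site was 28.5 ± 25.4 CPM in heads and 28.8 ± 16.8 in bodies (n = 4 each). At the distal sites together it was 40.7 ± 14.5 and 2.73 ± 1.20, with head libraries at 19.2 to 49.6 and body libraries at 1.14 to 3.84. The difference in the gene's level thus lay in the reads at the distal sites. The call was lost without the term for the range (edgeR adjusted p = 0.161) and was kept without each single library in turn.

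Mutants showed the same split. Mutant heads had 85.2% and 86.5% of mRpL45 reads at the distal sites, and mutant bodies 0 of 42 reads, which allows a share of up to 7.14%, and 24.2%. The groups did not overlap, and the log2 ratio was 5.45 (SE 0.956, edgeR adjusted p = 0.00306; 23.0% of genes called). It was 4.41 without mutant body replicate 1 and 10.55 without replicate 2. Between genotypes mRpL45 did not pass in heads (0.77, edgeR adjusted p = 0.880) or bodies (-1.05, edgeR adjusted p = 0.676). The body value rested on the replicate, at 0.01 without mutant body replicate 1 and -6.14 without replicate 2. Each of these fits leaves 1 mutant body library. The other members tested were mRpL4, mRpL17 and mRpS24. Between wild-type heads and bodies their log2 ratios were 1.00, -0.16 and 0.34 (edgeR adjusted p = 0.548, 0.970 and 0.827). mRpL17 and mRpS24 passed in none of the 5 comparisons. Without mutant body replicate 2, mRpL17 measured 2.11 between genotypes in bodies and -2.12 between mutant tissues, with 1 mutant body library left. Replicate 2 of wild-type heads and bodies held no reads at either site of mRpL17.

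The mutant was next compared with wild type among the 8 later libraries. In heads 0 of 37 members were called by edgeR and 0 by DESeq2, where these called 1.11% and 4.28% of 5674 genes. At an unadjusted p under 0.05 in edgeR there were 1 member and 646 of all genes. The lowest adjusted p was 0.401, and the median log2 difference was 0.06, against 0.02 over all genes. mRpL32 had the highest value, 1.15 (SE 0.499, edgeR adjusted p = 0.447), with 8.56 and 8.85 CPM in mutant heads and 2.61 and 5.53 in wild-type heads. mRpL4, whose bacterial counterpart lines the peptide tunnel, followed at 0.76 (SE 0.309, edgeR adjusted p = 0.401), with 64.2 and 67.7 against 42.9 and 37.4 CPM. Neither gene's groups of 2 libraries overlapped, and how often that held over all genes was not counted. mRpL47, mRpS2 and mRpS23 measured 0.74, 0.62 and 0.49. The lowest were mRpS9 at -0.42, mRpL27 at -0.36, mRpL19 at -0.35, mRpL44 at -0.23 and mRpL37 at -0.21.

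In bodies 1 of 37 members was called by edgeR and 1 by DESeq2, mRpL51, where these called 2.34% and 7.6% of genes. mRpL51, a large subunit protein without a bacterial counterpart, had 61.6 and 50.04 CPM in mutant bodies and 18.3 and 15.0 in later wild-type bodies. The groups did not overlap, and early wild-type bodies held 29.9 and 13.7. The log2 fold change was 1.81 (SE 0.306, edgeR adjusted p = 0.0314). It was 1.57 without mutant body replicate 1 and stayed called (edgeR adjusted p = 0.0388), while without wild-type body replicate 3 or 4 the adjusted p was 0.267 and 0.171. Without either later wild-type head or either mutant head, which only share the estimate of spread, it was 0.0605 to 0.0723.

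For most of the other members named here, mutant body replicate 1 lay over 2-fold outside the other later bodies. mRpL48 was the exception, with 8.66 and 14.8 CPM in mutant bodies against 22.1 and 22.9 in wild type. mRpL44 had 656.6 and 127 CPM in mutant bodies against 131 and 141.5 in wild type (log2 1.60, edgeR adjusted p = 0.252). Its replicate 2 lay below both wild-type values. mRpS2 at 1.11, mRpS11 at 1.04 and mRpL28 at 0.73 completed the 5 highest, and mRpS18A at -1.08, mRpS9 at -1.06, mRpS33 at -0.99, mRpL48 at -0.86 and mRpL24 at -0.72 were the lowest, with edgeR adjusted p from 0.231 to 0.516. The groups overlapped for mRpL44 and mRpL28 and not for the others. These members were picked by the size of their difference, with 2 libraries in each group. How often such groups overlapped over all genes was not counted. mRpS9 measured 21.9 CPM in mutant body replicate 1 and 119 in replicate 2, against 146 and 159 in wild type. Without mutant body replicate 2, so that replicate 1 stood alone and was assumed to vary like the other groups, 14 members were called, where 29% of all genes were. The median over the members was 0.08, against 0.09 over all genes.

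Muscle marker sums of the genotypes did not overlap, and were not tested as sums. They came to 2904 to 5483 CPM in mutant bodies and 13330 to 30270 in later wild-type bodies, and to 2520 to 4238 in mutant heads against 7154 to 8214. Mhc was the 1 muscle marker of 7 called lower in mutant bodies and 0 of 7 were called in heads. Fat body markers summed to 219.8 to 253.6 CPM in mutant bodies against 629.3 to 6450, and to 104 to 206 in mutant heads against 481.5 to 617.6, with 0 of 3 called in either. Of 6 gut markers 1 was called higher and 2 lower in mutant bodies, and 0 in heads. Photoreceptor, neuron, male and ovary markers had 0 calls in either tissue. The part of these markers' cell types in the members' values was not tested. Of the other lists, Cyt-c-p of the respiratory chain was called lower in mutant bodies (log2 -3.03, edgeR adjusted p = 0.0315), and no gene for mitochondrial translation factors, mitochondrial DNA upkeep or cytosolic ribosomal proteins was called in either tissue.

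A test of whether the mutant difference itself differed between heads and bodies called 0 of 37 members by edgeR and 0 by DESeq2. Over all genes these called 0.0% and 0.705%. At an unadjusted p under 0.05 in edgeR there were 1 member and 396 of 5674 genes. For mRpL51 the difference between tissues was -1.67 on the log2 scale (SE 0.431, edgeR adjusted p = 0.446). Without mutant body replicate 2 it was -1.77 and called (edgeR adjusted p = 0.0340), one of 11 members called then, where 8.66% of all genes were. For mRpL44 it was -1.84 (edgeR adjusted p = 0.788), and for mRpS18A, the highest, 1.14 (edgeR adjusted p = 0.870).

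**Figure D4:**
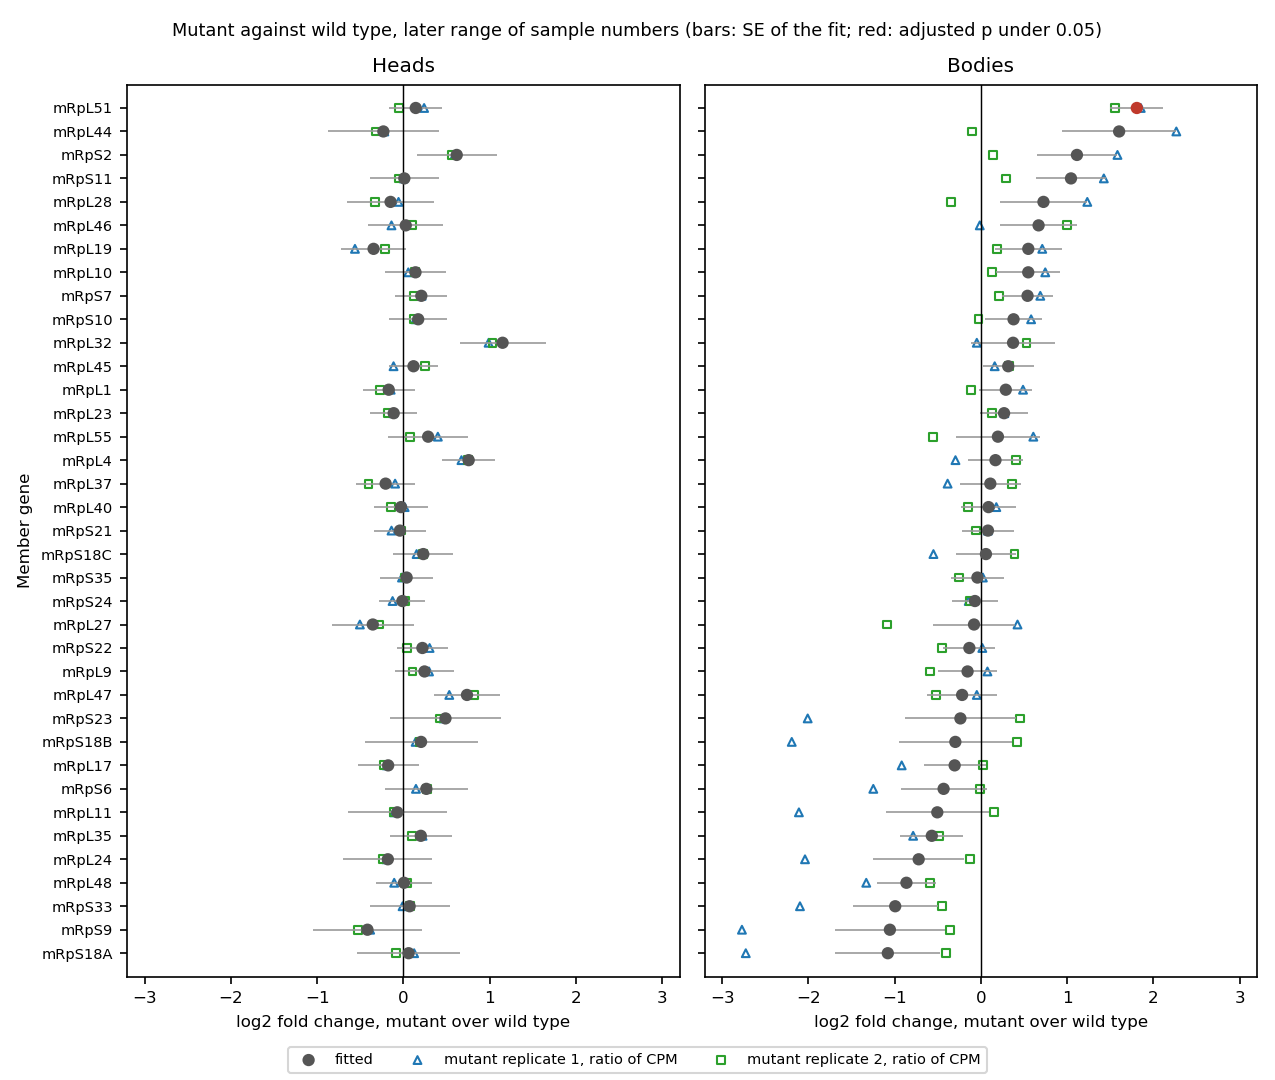
Log2 difference of each member between mutant and wild type in heads and in bodies. Circles with bars are the fitted value ± SE, red where the adjusted p is under 0.05 (mRpL51 in bodies); triangles and squares are mutant replicates 1 and 2 over the mean of the later wild-type libraries. In heads the replicates lie close together, and in bodies replicate 1 lies away from replicate 2 for mRpL44, mRpS9 and others.

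The reads behind the mRpL51 difference lay at a site near the gene's start. mRpL51 (FBgn0032053) is a single-exon gene of 628 nt on the minus strand of 2L:8516753-8517380. Its main site, at 2L:8516728, lies 40 nt past the last coding base. The other site, at 2L:8517368, lies 12 nt inside the annotated start and 600 nt before the last coding base. The coding sequence starts at 2L:8517292, so a transcript ending at that site holds almost none of the gene and no coding base. Uba4 starts on the opposite strand at 8517411, 31 nt away. Strand was used in counting, so reads of Uba4 transcripts do not enter these values.

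At the site near the start fell 121 of 134 reads in mutant body replicate 1 (90.3%, exact 95% interval 84.0 to 94.7) and 85 of 144 in replicate 2 (59.0%, 50.5 to 67.1). Later wild-type bodies held 0 of 48 and 0 of 41 reads there. The remaining libraries had 2 of 78 reads in wild-type body replicate 1, 1 of 55 in mutant head replicate 2 and 0 in the others, so mutant bodies stood above every other library. The mean share was 74.7% ± 22.1 (SD, n = 2) in mutant bodies, and 0 of 89 reads over both later wild-type bodies allows up to 3.37%. The mean share was 22.1-fold that limit. This ratio takes no account of the spread between the 2 mutant libraries, and replicate 2 alone would give less. Intervals and limits here cover counting error only.

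Of members, mRpL51 alone had enough such reads to test, and 1080 genes were tested in all. Between mutant and wild-type bodies edgeR gave a log2 ratio of 10.28 (SE 1.65, adjusted p = 3.6e-04), with 4.91% of genes called, and 9.08 without mutant body replicate 1 (adjusted p = 3.6e-09). The size of this fitted value depends on how the zeros are handled, and limma on log2 ratios with 0.5 reads added gave 8.33 (adjusted p = 0.00266). In heads it did not pass (2.07, edgeR adjusted p = 0.948; 2.69% called). Between mutant heads and bodies it was -8.23 (edgeR adjusted p = 4.3e-05; -7.00 without mutant body replicate 1; 32.3% called), and between wild-type heads and bodies -1.86 (edgeR adjusted p = 0.490; 21.0% called). The difference of the mutant effect between tissues was not called in any gene (0.0%). For mRpL51 edgeR could not estimate its error, and limma gave -7.86 (SE 1.42, adjusted p = 0.116).

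The level at the site near the start was 55.2 and 28.6 CPM in mutant bodies and 0 in both later wild-type bodies. The level at the 3'UTR site was 5.93 and 19.8 CPM in mutant bodies (12.9 ± 9.82, n = 2) and 16.5 ± 2.56 in later wild-type bodies (n = 2). These groups overlapped in part, since replicate 2 lay above the wild-type mean and replicate 1 below it. Counted over 3'UTR sites alone, an alternative chosen after seeing the data, mRpL51 measured -0.24 on the log2 scale in mutant against wild-type bodies (edgeR adjusted p = 0.861). The higher level of mRpL51 in mutant bodies thus came from reads near the gene's start, and no difference in transcripts that hold the whole coding sequence was detected.

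Reads on the same strand were also found before the gene. In the 1000 nt before the start of mRpL51, mutant bodies held 177 and 148 reads, later wild-type bodies 31 and 53, early bodies 7 and 1, and heads 0 to 3. The most used position there lay at 2L:8517624, 244 nt before the start. These reads were assigned to no member. Reads at the site inside the gene, 12 nt from its annotated start, count towards the level of mRpL51 by position alone. Whether they belong to a transcript that begins before the gene was not tested.

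Mutant heads and mutant bodies were compared as a last contrast in level. Of 37 members 3 were called higher and 1 lower in heads by edgeR, and 5 in all by DESeq2. Over all genes edgeR called 52.6%, 17.4% as higher in heads, and DESeq2 54%. At an unadjusted p under 0.05 in edgeR there were 6 members and 3272 of 5674 genes. mRpS33, of the small subunit, had 38.5 and 40.8 CPM in mutant heads and 5.47 and 18.1 in mutant bodies (log2 1.51, edgeR adjusted p = 0.0328). mRpL48 had 35.0 and 38.8 against 8.66 and 14.8 (1.42, edgeR adjusted p = 0.00832), and mRpL45 55.3 and 71.1 against 21.0 and 23.5 (1.29, edgeR adjusted p = 0.00642). In each the groups of 2 libraries did not overlap, and how often that held over all genes was not counted. Without mutant body replicate 1 the log2 values were 1.09, 1.28 and 1.39, all still called, and without mutant head replicate 2 none of these 3 passed (edgeR adjusted p = 0.0963, 0.0512 and 0.0646). For mRpL45 the direction turned with the 200 nt window, to -1.24 (edgeR adjusted p = 0.0159).

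mRpL51 was the member lower in mutant heads, at 23.0 and 18.7 against 61.6 and 50.04 CPM in mutant bodies (log2 -1.64, edgeR adjusted p = 0.00258; -1.30 without mutant body replicate 1), and over its 3'UTR site alone the value was 0.45 (edgeR adjusted p = 0.501). Of members not called, mRpS9 and mRpS18A measured 1.36 and 0.98, and mRpL44, mRpL28, mRpS10 and mRpL27 -1.28, -1.18, -0.66 and -0.52. mRpL45 was called in this direction in wild type as well, and the mutant fit takes its spread also from the later wild-type libraries. The median was 0.31 over the members and -0.23 over all genes. Without mutant body replicate 1, 10 members were called (57.7% of all genes), 21 without replicate 2 (65.4%) and 1 without mutant head replicate 2 (40.1%).

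In mutant heads against bodies the translation factors and synthetases held 3 higher and 2 lower calls of 12, among them ProRS-m at 1.37 and mEFTs at -1.54 (edgeR adjusted p = 0.00736 and 0.00709). The lists of mitochondrial DNA upkeep, respiratory chain and cytosolic ribosomal proteins had 0, 1 and 0 higher and 1, 10 and 5 lower calls of 10, 40 and 41.

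mRpL4 was the 1 of 4 members with a called difference in 3'UTR site between genotypes, in heads, where 3.14% of genes were called. Its sites lie 77 and 254 nt past the last coding base, on the minus strand at 2L:16328053 and 16327876. The distal site took 18.75% of 112 reads and 18.4% of 76 reads in later wild-type heads, and 2.44% of 164 reads and 0 of 197 reads in mutant heads. The groups did not overlap, but early wild-type heads, at 7.94% and 0 of 53 reads, lay below the later ones, the second of them at the level of the lower mutant library. The mean fell from 18.6% ± 0.233 to 1.22% ± 1.73 (SD, n = 2 each), and the log2 ratio was -4.28 (SE 0.971, edgeR adjusted p = 0.0485). limma gave an adjusted p of 0.0736, and sites placed by the highest position gave -0.85 (edgeR adjusted p = 0.710). The ratio was -8.25 without mutant head replicate 1 (edgeR adjusted p = 0.0457) and -3.15 without replicate 2 (edgeR adjusted p = 0.298). Without wild-type head replicate 3 or 4 the edgeR adjusted p was 0.308 and 0.248, and without wild-type body replicate 3 or 4, which share the fit, 0.148 and 0.147.

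In bodies 0 of 4 members were called between genotypes (4.85% of genes called). The difference of that effect between tissues was called in 0 of 4 (0.0% of genes; mRpL4 -3.86, edgeR adjusted p = 0.971). Without mutant body replicate 2, mRpL4 at -4.52 and mRpL45 at 6.91 passed for this difference (edgeR adjusted p = 0.0136 and 0.0149; 15.7% of genes called). The distal share of mRpL4 was 6.49% and 10.1% in later wild-type bodies and 9.80% and 4.24% in mutant bodies, which overlapped. For mRpL17, which uses sites at 112, 150, 180, 474 and 528 nt, and mRpS24, with sites at 61 and 141 nt, the log2 ratios in heads were 0.47 and 0.69 (edgeR adjusted p = 0.948 and 0.730).

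**Figure D5:**
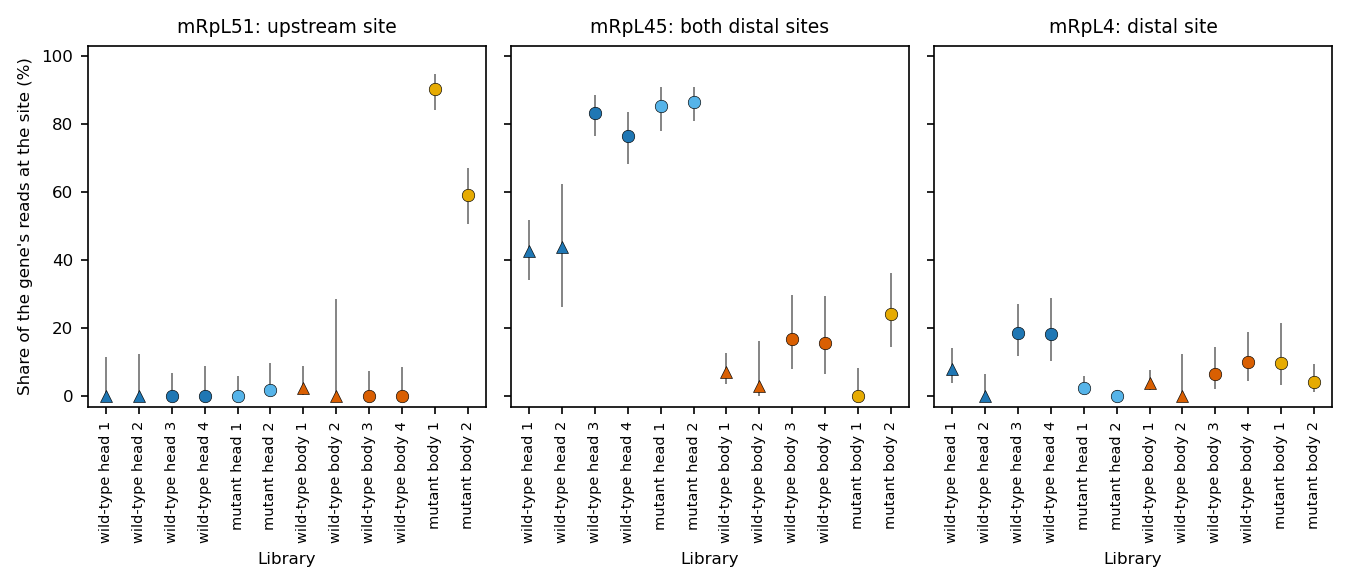
Share of the gene's reads in percent, per library, at the site near the start of mRpL51, at both distal 3'UTR sites of mRpL45 and at the distal 3'UTR site of mRpL4. Bars are exact 95% intervals for counting error; triangles are early and circles later libraries. mRpL51 stands at 90.3% and 59.0% in mutant bodies, and mRpL45 at 42.8% to 86.5% in heads against 0% to 24.2% in bodies.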

How the data were processed

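The deposited files hold raw read counts per genomic position, strand and library, with no normalization by the authors stated. Reads had been aligned with Bowtie2 to BDGP5, per the submitters' processing notes. The sources used here state neither a filter on tails nor which protocol made which library.

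Genes came from the BDGP6 annotation, release 115. Coordinates of 2L and 3L (up to 22258266 and 4919025) are the same in both builds. On 3R a constant 4174278 nt was subtracted from the annotation. After this, 60.0% of 5190 positions with at least 200 pooled reads lay within 10 nt of a transcript end, against 0.212% without it, and 48.4% to 67.1% in each of 28 windows of 1 Mb. On 2L 61.7% of 3907 and on 3L 57.5% of 882 did. Reads were assigned by strand to a gene and the 1000 nt after it: 94% fell to 1 gene, 5.29% to overlapping genes and 0.704% to none. For 9 members under 50 reads lie inside the annotated bounds, the rest past the end. Of these, mRpL45 has sites 342 and 427 nt past its end.

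Sites joined positions of at least 5 pooled reads within 24 nt. CPM were scaled by TMM over named genes. edgeR 4.0.16 in R 4.3.3 tested reads per gene after filterByExpr, and tested pairs of site classes with a term per library, where a gene averaged 20 reads and its lesser site held 5% (upstream class 1%), over all genes, with Benjamini-Hochberg adjustment at 0.05. The wild-type tissue fit used 8 libraries with the sample-number range as a term, and the mutant fits used the 8 later libraries in 4 groups. DESeq2 1.42.0 and limma 3.58.1 served as alternatives, beside other scaling, filters, windows, leave-one-out and block fits. The scripts were tested on simulated counts. Python 3.11.15, numpy 2.4.6, pandas 2.3.3, scipy 1.17.1 and matplotlib 3.10.9 were used. Values for 0 reads use 3 counts as the limit.

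Named were the 5 highest and 5 lowest members per expression comparison and by mean level, all members called, and the members with upstream or tested 3'UTR sites; of other lists, up to 4 genes with the smallest adjusted p in the tissue comparison, with further genes named after their values were seen. Members and lists were chosen with earlier results of these data known. Deviations from group means correlated between heads and bodies of the same number in wild type (r = 0.759, 0.767, 0.773 and 0.722), above the limit set for pairing. In the later range libraries of different number did so as well (0.769 and 0.706), and within a range r was 0.689 in the early and 0.0537 in the later one, so the later numbers may pair nothing. In mutants r was 0.00138, and between mutants and wild type -0.128 to 0.124, so no pairing was taken. mRpL13 and genes outside the named regions were left out. No source used here says how reads of near-identical copies were aligned.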

Additional observations from a re-analysis of the deposited data

Results flagged for a closer look

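In 7 of the wild-type values, 1 library lay apart from the other 3 of its group, with a gap to its neighbour above Dixon's 95% critical share of the group's range. For level, 74 gene and group combinations were tested. A chance rate of about 1 in 20 assumes 4 independent values from 1 normal distribution. Each group here joins early and later libraries, so that rate does not apply as it stands. mRpL32 had 607.2 CPM in head replicate 2 and 275.5 CPM in body replicate 2, against 1.74 to 5.53 in the other heads and 1.54 to 6.10 in the other bodies. mRpS22 had 460.9 CPM in head replicate 2, against 23.5 to 49.95. mRpL28 had 248.1 CPM in body replicate 2, below the other bodies at 586.3 to 653.5. mRpL1 had 102.1 CPM and mRpL4 had 77.13 CPM in body replicate 1, against 53.4 to 61.4 and 29.4 to 35.4 in the other bodies. The site near the start of mRpL51 had 2.564% of reads in body replicate 1 and 0 in the other wild-type bodies, which rests on 2 reads; with the others at 0, any read would stand apart in this way. These libraries belong to the early range of sample numbers, and the part of the range was not tested.

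Reads that were assigned to no member also differed from the wild-type libraries. In the 1000 nt before mRpL51, on its strand, mutant bodies held 325 reads in all, as 177 and 148, against 31 and 53 in the later wild-type bodies. In the 1000 nt before mRpL46, mutant heads held 85 reads in all, as 43 and 42, against 15 and 15 in later wild-type heads and 6 and 1 in early ones. Mutant bodies held 40 and 53 reads there and later wild-type bodies 19 and 25. The most used position lay 418 nt before the start of mRpL46. The direction was not the same before every member. In the 1000 nt before mRpS18A, mutant heads held 1 and 1 reads, against 23 and 12 in later wild-type heads. How many windows held more or fewer reads in mutants was not counted, and no test was run on these reads.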

How the results depend on the processing

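Of the named members' values under other settings, 1056 kept their direction and side of the threshold, 84 lost and 35 gained a call, 49 changed sign with no call under either setting and 5 changed sign with a call. Of the 49, 16 arose with the replicate block over 12 libraries and 10 without mutant body replicate 1. For wild-type heads against bodies, the 7 calls (47.8% of all genes) became 9 by DESeq2 (54.8%) and 8 with all reads as library size (47.8%). They became 2 with DESeq2 size factors (45.1%) and 2 without the low-count filter (41.4%). On 2L and 3L alone 1 of 16 was called (47.8%), over 3'UTR sites 1 (39.5%) and without the range term 0 (31.9%). Without 1 library 1 to 7 were called (37.1% to 50.3%). With DESeq2 size factors the median was -0.00 over all genes and 0.32 over the members, in place of 0.17 and 0.50. For mutant against wild type, the 0 calls in heads became 1 when heads were fitted alone and stayed 0 without 1 library. The 1 call in bodies became 0 over 3'UTR sites, 0 when bodies were fitted alone and 0 to 14 without 1 library. The difference of these effects went from 0 to between 0 and 11 without 1 library. The 4 calls between mutant heads and bodies became 7 with all reads as library size, 7 with overlaps resolved and 1 to 21 without 1 library. The cause was not tested.

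With a replicate block over all 12 libraries, which the numbers do not pair across genotypes, 12 members were called between genotypes in heads (25% of all genes) and 11 in bodies (26.1%). For 3'UTR sites 1 of 4 was called in bodies (31.2%), and in heads mRpL45 was called in place of mRpL4. In wild type the pairing block gave 10 calls (56.1% of all genes) and changed no 3'UTR call.

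For 3'UTR sites, the 1 call between wild-type tissues became 0 on 2L and 3L alone (133 of 833 genes called), as mRpL45 lies on 3R. It became 0 without the range term (46 of 1751) and stayed 1 without 1 library (120 to 337 of 1751). The 1 call between genotypes in heads became 0 by limma (58 of 1751) and 0 with sites at the highest position (57 of 2108). It was also lost without some single libraries. The 0 calls in bodies and of the difference rose without some single libraries, fits that leave 1 library in a group. The 1 call between mutant tissues became 0 on 2L and 3L alone (203 of 833 genes called), and rose without some single libraries. The mRpL51 calls at the site near the start kept their side under all settings run.

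The named values that changed sign with a call under either setting were mRpL45 with a 200 nt window, at -0.25 between wild-type tissues and -1.24 between mutant tissues (edgeR adjusted p = 0.0159), mRpL51 over 3'UTR sites at -0.24 in bodies and 0.45 between mutant tissues, and mRpL44 in heads with the replicate block over 12 libraries at 2.06. Precision is limited by 2 mutant libraries per tissue and by 11 to 200 reads per library behind the site shares of mRpL51, mRpL45 and mRpL4.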
